A study of Mus musculus with 14 samples.

Results

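The inflammatory caspases and IL-1 family genes described here are 7 mouse genes, Casp1, Casp4, Pycard, Gsdmd, Aim2, Il18 and Il1rn, chosen by name and read from RNA sequencing tables of CD4+ T cells. All 7 have rows in both tables, among 23759 genes. Naive CD4+CD62LhiCD44loCD25- cells of C57BL/6 mice were stimulated for 3 days through CD3 and CD28, by antibodies fixed to the plate at 10 µg/ml each, in 1 of 7 media, with 2 libraries per medium. The IL27_plus_TGF_beta medium held IL-27 at 20 ng/ml, TGF-β at 2 ng/ml and antibodies to IFN-γ, IL-2 and IL-4. The Th1 medium held IL-12 at 20 ng/ml and anti-IL-4 at 10 µg/ml. The Th2 medium held IL-4 at 20 ng/ml and anti-IFN-γ at 10 µg/ml. The iTreg medium held TGF-β at 20 ng/ml, IL-2 at 50 U/ml and anti-IFN-γ. The Th17_b medium held TGF-β at 2 ng/ml, IL-6 at 20 ng/ml, anti-IFN-γ and anti-IL-2, the last at 10 µg/ml. The Th17_23 medium held IL-1β at 20 ng/ml, IL-6 at 20 ng/ml, IL-23 at 50 ng/ml, antibodies to IFN-γ and IL-2, and antibodies to TGF-β1 and to TGF-β2/1.2 at 5 µg/ml each. The Th0 medium held no added cytokine and blocked IL-2, IL-4 and IFN-γ with antibodies. Doses not given here are not in the labels. Whether the libraries of a medium came from different mice or cultures is not stated, so each p-value speaks only of how far these libraries vary.

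Inflammasomes are cytosolic complexes in which a sensor, such as the DNA-binding AIM2, recruits caspase-1 through the adaptor ASC, which Pycard encodes. Active caspase-1 cleaves the precursors of IL-1β and IL-18 and also gasdermin D, whose released fragment opens pores in the plasma membrane. Mouse Casp4 encodes caspase-11, which binds cytosolic lipopolysaccharide and cleaves gasdermin D without a separate sensor. Il1rn encodes the IL-1 receptor antagonist, which occupies the IL-1 receptor without signalling. These genes are best known from macrophages, while T cells are known mainly as responders: IL-1 acts on Th17 cells and IL-18 on Th1 cells. Only RNA was measured, so nothing here speaks of caspase cleavage or of secreted protein.

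Levels are FPKM, the fragments assigned to a gene scaled to transcript length and library total, so they can be compared between genes. Changes are differences in log2(FPKM + 1) ± SE, a scale that understates the change of genes near 0. A gene was called at a Benjamini-Hochberg adjusted p under 0.05 in limma, over 11555 tested genes and 14 libraries. Many low FPKM values fall on multiples of a smallest step, 64.3% to 72.0% of the transcripts compared with Th0 replicate 1 in the other 13 libraries, and from these steps replicate 1 libraries had 0.935 to 1.06 and replicate 2 libraries 0.748 to 0.832 times the depth of Th0 replicate 1. Of the 4 lineage genes, Foxp3 was highest in iTreg (96.5 and 104 FPKM), Gata3 in Th2 (93.3 and 117 FPKM) and Il17a in Th17_b (286 and 448 FPKM). Tbx21, the Th1 factor, was highest in IL27_plus_TGF_beta (50.0 and 65.7 FPKM), above Th1 (32.5 and 32.3 FPKM), with a difference of 0.80 ± 0.12 (adjusted p = 0.00045), and stood at 13.8 and 17.6 FPKM in Th17_23. The 8 CD4 T cell markers summed to 1507 to 2373 FPKM in every library. The 15 myeloid markers summed to 3.55 to 6.85 FPKM, and Lyz1, Lyz2, Fcgr1, S100a8, S100a9, Clec7a and Csf3r were at or under 0.05 FPKM in every library. The 6 B cell markers summed to 0.236 to 1.97 FPKM and the 2 CD8 T cell markers to 2.71 to 7.78 FPKM over all libraries. In bulk RNA, fewer cells with a transcript and less transcript per cell cannot be told apart.

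**Figure D1:**
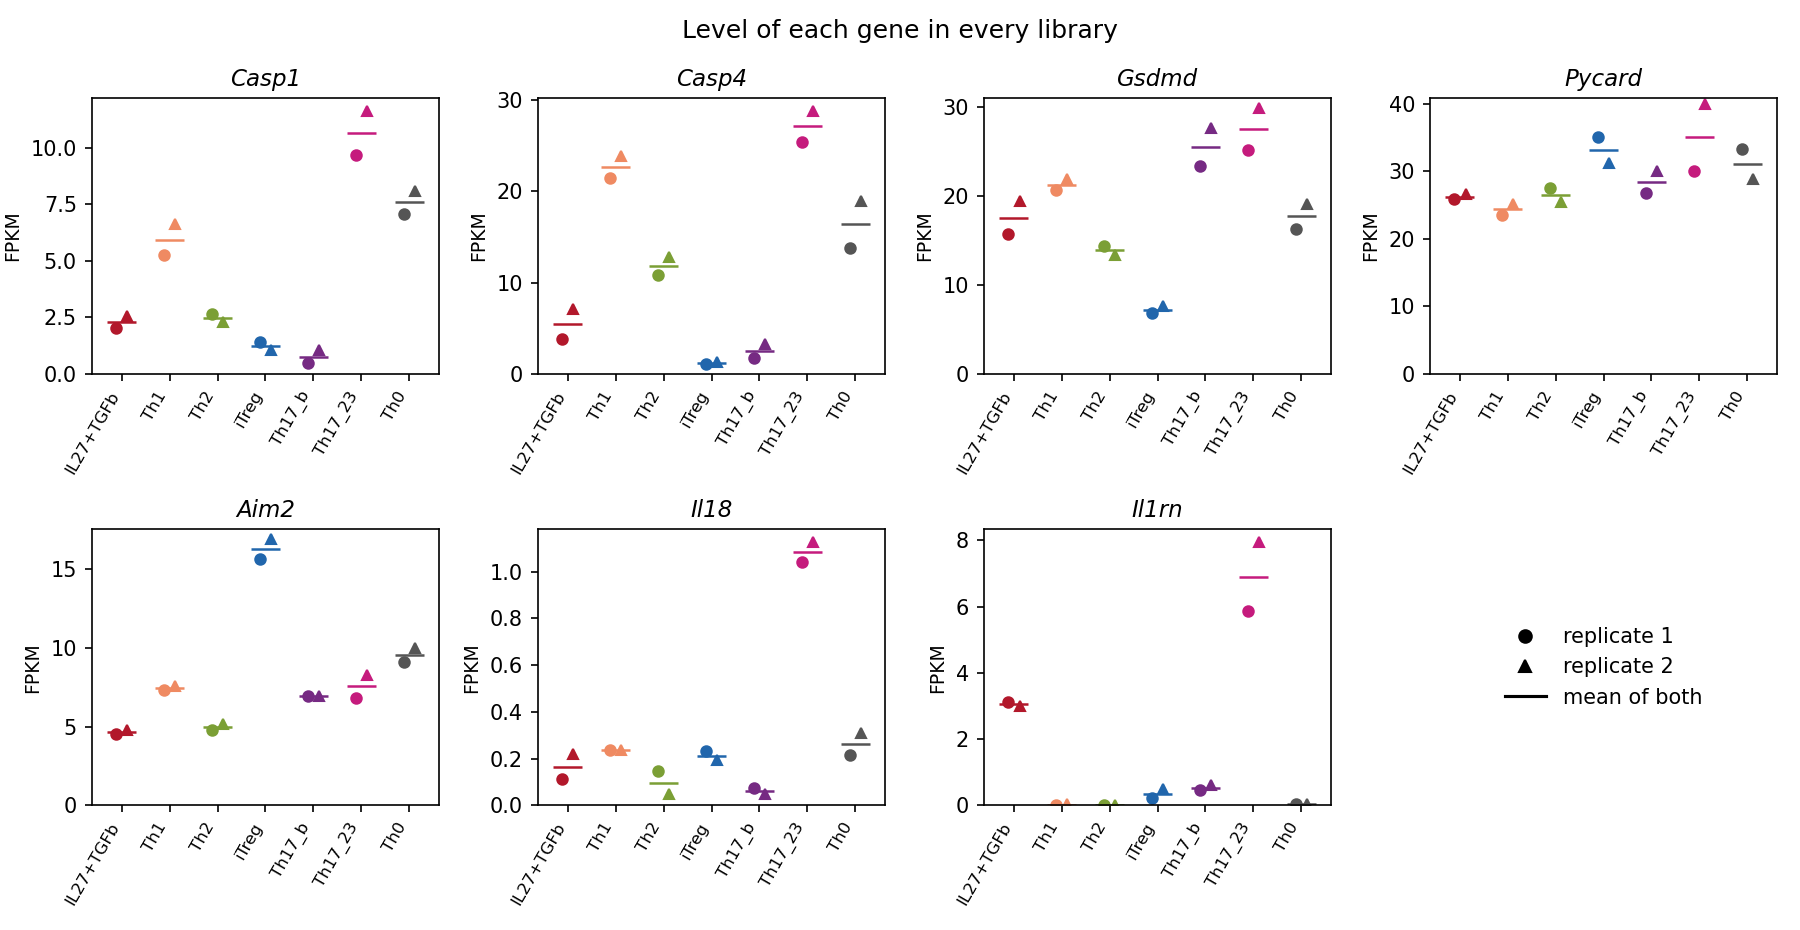
FPKM (linear axis from 0) of the 7 genes in each library, with replicate 1 as a circle, replicate 2 as a triangle and their mean as a line, over the 7 media with Th0 at the right. Casp1 and Casp4 are low in iTreg and Th17_b, Aim2 is highest in iTreg, Il18 passes 1 FPKM in Th17_23 alone among these media, and Il1rn is seen mainly in Th17_23 and IL27_plus_TGF_beta.

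Of the caspases, both inflammatory members were at their highest in Th17_23 and at their lowest in media with TGF-β. Casp1 stood at 2.05 and 2.57 FPKM in IL27_plus_TGF_beta, 5.25 and 6.63 in Th1, 2.65 and 2.31 in Th2, 1.42 and 1.08 in iTreg, 0.489 and 1.04 in Th17_b, 9.68 and 11.7 in Th17_23, and 7.07 and 8.11 in Th0. The libraries of IL27_plus_TGF_beta, Th2, iTreg and Th17_b all lay below every library of Th1, Th17_23 and Th0. Against Th0, Casp1 fell in IL27_plus_TGF_beta (-1.38 ± 0.15, adjusted p = 5.3e-05), Th2 (-1.30 ± 0.15, adjusted p = 0.00032), iTreg (-1.93 ± 0.15, adjusted p = 7.8e-06) and Th17_b (-2.30 ± 0.15, adjusted p = 1.9e-06). In Th17_b the mean was 10.1% of that in Th0. Casp1 in Th1 was not called (-0.31 ± 0.15, adjusted p = 0.19). Its rise in Th17_23 (0.44 ± 0.15, adjusted p = 0.033) was lost without the table term, with a pseudocount of 0.1, with no filter, and with any 1 of the 4 libraries left out, when it lay between 0.38 and 0.50.

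Casp4 was more abundant than Casp1 in every medium but iTreg. It stood at 3.86 and 7.15 FPKM in IL27_plus_TGF_beta, 21.4 and 23.8 in Th1, 10.8 and 12.8 in Th2, 1.06 and 1.30 in iTreg, 1.80 and 3.24 in Th17_b, 25.5 and 28.8 in Th17_23, and 13.8 and 19.0 in Th0. The 3 media with added TGF-β held the 3 lowest levels, and none of their libraries reached those of the other media. Casp4 fell against Th0 in IL27_plus_TGF_beta (-1.45 ± 0.15, adjusted p = 3.6e-05), iTreg (-2.99 ± 0.15, adjusted p = 6.8e-07) and Th17_b (-2.32 ± 0.15, adjusted p = 1.8e-06), and it rose in Th17_23 (0.71 ± 0.15, adjusted p = 0.0037). In iTreg its mean was 7.17% of that in Th0. Neither Th1 (0.45 ± 0.15, adjusted p = 0.071) nor Th2 (-0.43 ± 0.15, adjusted p = 0.077) was called, and Th1 was called with quantile normalization (0.49) and with scaling to 1 median (0.49). Its reads could be counted back from the steps and ran from 50 in iTreg replicate 2 to 1273 in Th17_23 replicate 1. Replicate 2, which is the second table, held more Casp4 than replicate 1 in 7 of 7 media, as it did for Aim2.

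The ratio of Casp4 to Casp1 FPKM was 1.88 and 2.78 in IL27_plus_TGF_beta, 4.08 and 3.60 in Th1, 4.09 and 5.55 in Th2, 0.745 and 1.20 in iTreg, 3.67 and 3.12 in Th17_b, 2.63 and 2.47 in Th17_23, and 1.96 and 2.34 in Th0. The ratio was highest in the Th1, Th2 and Th17_b libraries and lowest in both iTreg libraries. Between IL27_plus_TGF_beta and Th2, Casp1 was not called different (-0.07 ± 0.15, adjusted p = 0.70), while Casp4 was lower in IL27_plus_TGF_beta (-1.03 ± 0.15, adjusted p = 0.00031). In iTreg, Casp4 and Casp1 lay at about the same level. Across the 7 medium means of log2(FPKM + 1), Casp1 and Casp4 had a Pearson correlation of 0.913, over points that share the libraries and tables.

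**Figure D2:**
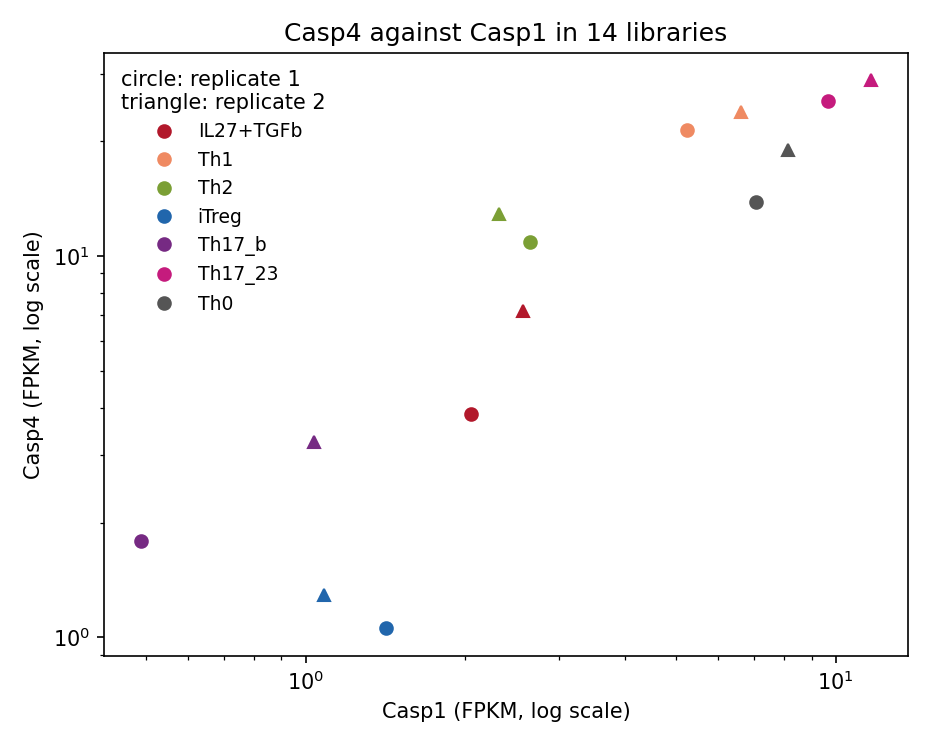
Casp4 against Casp1 in the 14 libraries, both in FPKM on log axes, coloured by medium, circles for replicate 1 and triangles for replicate 2. The iTreg libraries lie lowest for Casp4, at 1.06 and 1.30 FPKM, the Th17_b library of replicate 1 lies lowest for Casp1, at 0.489 FPKM, and the Th17_23 libraries lie highest for both.

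Casp1 and Casp4 are neighbours on chromosome 9, followed by Casp12, which was at or under 0.0241 FPKM in every library. Their promoters are shown because the genes fell together in IL27_plus_TGF_beta, iTreg and Th17_b. Each window runs from 250 bases before to 50 bases from the start site on, as RefSeq places it in GRCm38.p6, on the plus strand and read 5′ to 3′. The Casp1 window is chr9:5298267-5298566 and the Casp4 window chr9:5308599-5308898, and capitals mark a match to a searched motif.
Casp1: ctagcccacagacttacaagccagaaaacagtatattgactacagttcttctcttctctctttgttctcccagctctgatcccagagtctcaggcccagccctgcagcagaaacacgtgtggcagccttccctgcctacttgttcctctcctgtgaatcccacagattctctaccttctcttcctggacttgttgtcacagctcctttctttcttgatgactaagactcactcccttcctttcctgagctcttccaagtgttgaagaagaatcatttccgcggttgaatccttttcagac
Casp4: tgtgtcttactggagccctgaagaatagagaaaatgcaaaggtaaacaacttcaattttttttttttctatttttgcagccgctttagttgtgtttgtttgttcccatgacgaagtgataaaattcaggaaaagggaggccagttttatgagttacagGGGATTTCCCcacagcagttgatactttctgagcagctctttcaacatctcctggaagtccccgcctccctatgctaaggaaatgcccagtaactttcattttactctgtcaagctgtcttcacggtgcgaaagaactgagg
The motifs searched on both strands were AP-1 (TGANTCA), the interferon gamma-activated site (TTCNNNGAA), the interferon-stimulated response element (GAAA, any 2 bases, GAAA), NF-κB (GGGA, any base, TT, any base, CC) and the ROR response element (AGGTCA). The Casp4 window holds GGGATTTCCC, a match to the NF-κB letters, from 92 to 83 bases before the start site. A match to these letters occurs in 1.20% of 32817 mouse promoter windows of the same length. The Casp1 window holds none of the 5 motifs. RefSeq windows were found for 6 of the 7 genes and none for Gsdmd. The windows of Aim2, Pycard and Il18 hold none of these letters either. A match describes letters and not a bound factor.

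Gsdmd, the pore-forming substrate of both caspases, did not share their pattern in Th17_b. It stood at 15.7 and 19.5 FPKM in IL27_plus_TGF_beta, 20.7 and 21.9 in Th1, 14.4 and 13.4 in Th2, 6.87 and 7.63 in iTreg, 23.4 and 27.6 in Th17_b, 25.2 and 29.9 in Th17_23, and 16.3 and 19.2 in Th0. Both iTreg libraries lay below all others, and the libraries of Th17_b and Th17_23 lay above all others. Against Th0, Gsdmd rose in Th17_b (0.50 ± 0.09, adjusted p = 0.0013) and in Th17_23 (0.61 ± 0.09, adjusted p = 0.00059) and fell in iTreg (-1.18 ± 0.09, adjusted p = 8.4e-06). In Th17_b the gene for the substrate was thus at 144% of Th0, while Casp1 was at 10.1% and Casp4 at 15.3%. IL27_plus_TGF_beta differed from Th0 by -0.02 ± 0.09 (adjusted p = 0.91), and this difference was 0.03 with scaling to 1 median. The fall in Th2 (-0.32 ± 0.09, adjusted p = 0.037) was lost in 8 alternatives, among them quantile normalization (-0.26) and leaving out Th2 replicate 2 (-0.18), Th0 replicate 1 (-0.36) or Th0 replicate 2 (-0.29). Th1 (0.25 ± 0.09, adjusted p = 0.097) was called with quantile normalization (0.28) and with scaling to 1 median (0.29). Reads of Gsdmd ran from 377 to 1646 per library.

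Pycard, the adaptor, varied least of the 7 genes between media. Its libraries lay at 25.8 and 26.7 FPKM in IL27_plus_TGF_beta, 23.6 and 25.2 in Th1, 27.6 and 25.5 in Th2, 35.1 and 31.3 in iTreg, 26.7 and 30.1 in Th17_b, 30.1 and 40.0 in Th17_23, and 33.4 and 28.8 in Th0. The highest medium mean was 1.44 times the lowest, against 3.80 for Gsdmd, 14.0 for Casp1 and 23.1 for Casp4. No medium was called against Th0, with changes from -0.33 ± 0.13 in Th1 (adjusted p = 0.12) to 0.16 ± 0.13 in Th17_23 (adjusted p = 0.34). Without Th17_23 replicate 1 the Th17_23 change was called (0.37), and without Th17_23 replicate 2 it was -0.06.

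Aim2, the DNA sensor, was highest in iTreg. It stood at 4.53 and 4.75 FPKM in IL27_plus_TGF_beta, 7.34 and 7.59 in Th1, 4.77 and 5.17 in Th2, 15.7 and 16.9 in iTreg, 6.92 and 6.95 in Th17_b, 6.81 and 8.30 in Th17_23, and 9.10 and 9.97 in Th0. Both iTreg libraries lay above every other, and the IL27_plus_TGF_beta and Th2 libraries lay below those of the other media. Against Th0, Aim2 rose in iTreg (0.72 ± 0.07, adjusted p = 3.1e-05) and fell in IL27_plus_TGF_beta (-0.90 ± 0.07, adjusted p = 6.1e-06), Th2 (-0.82 ± 0.07, adjusted p = 4.8e-05) and Th17_b (-0.41 ± 0.07, adjusted p = 0.00088). The fall in Th17_23 (-0.30 ± 0.07, adjusted p = 0.0059) missed the threshold without Th17_23 replicate 1 (-0.21, adjusted p = 0.060). The fall in Th1 (-0.31 ± 0.07, adjusted p = 0.018) was lost without the table term, with the other media left out, and with any 1 of their 4 libraries left out, when it lay between -0.35 and -0.28.

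Il18, the cytokine that caspase-1 matures, was near the limit of detection outside Th17_23. It stood at 0.112 and 0.218 FPKM in IL27_plus_TGF_beta, 0.238 and 0.237 in Th1, 0.147 and 0.0469 in Th2, 0.232 and 0.193 in iTreg, 0.0719 and 0.0480 in Th17_b, 1.04 and 1.13 in Th17_23, and 0.217 and 0.308 in Th0. The Th17_23 values rest on 28 and 26 reads, those of Th17_b on 2 and 1, and those of Th0 on 6 and 7. Il18 rose in Th17_23 against Th0 (0.72 ± 0.09, adjusted p = 0.00024), and its mean there was 4.14 times that of Th0. It passed the filter on low values through Th17_23 alone, so that it had to be high in that medium to be tested at all. The lower value in Th17_b (-0.25 ± 0.09, adjusted p = 0.044) missed the threshold in a fit of the compared media alone, with the highest transcript of each gene, and with any 1 of the 4 libraries left out, when it lay between -0.31 and -0.20. At 1 to 7 reads, the order of the other 6 media could not be resolved: none of the 5 neighbouring pairs among them was called (adjusted p from 0.46 to 0.88).

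**Figure D3:**
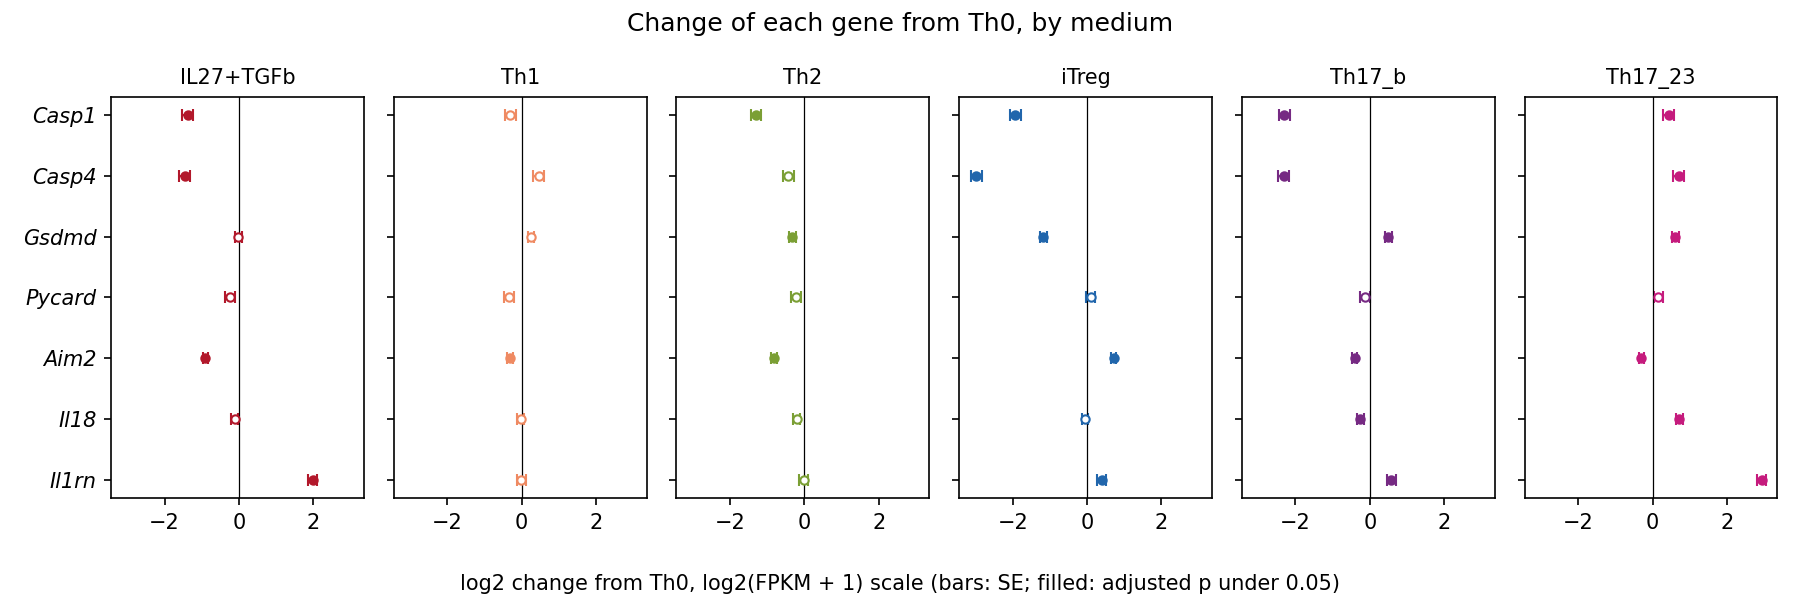
Change of each gene from Th0 in the 6 other media, as a difference in log2(FPKM + 1) with bars of 1 SE, 1 panel per medium. Filled points passed an adjusted p of 0.05 in limma, and all 6 panels share the Th0 libraries. The largest fall is that of Casp4 in iTreg (-2.99) and the largest rise that of Il1rn in Th17_23 (2.94).

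Il1rn, the gene of the receptor antagonist, was transcribed in 2 media above 1 FPKM. It stood at 3.11 and 2.99 FPKM in IL27_plus_TGF_beta, 0.0101 and 0.0282 in Th1, 0.0110 and 0.0140 in Th2, 0.212 and 0.490 in iTreg, 0.458 and 0.596 in Th17_b, 5.87 and 7.94 in Th17_23, and 0.0215 and 0.0263 in Th0. The libraries of these 2 media lay above all others, those of Th17_b and iTreg came next and overlapped, and those of Th1, Th2 and Th0 lay within 0.0101 to 0.0282 FPKM. Against Th0, Il1rn rose in Th17_23 (2.94 ± 0.12, adjusted p = 2.4e-07), IL27_plus_TGF_beta (1.98 ± 0.12, adjusted p = 1.1e-06) and Th17_b (0.58 ± 0.12, adjusted p = 0.0024). No fold is given for them, since the Th0 level lies near 0. Il1rn passed the filter on low values through Th17_23 and IL27_plus_TGF_beta alone, so it had to be high in either to be tested. Th17_23 was above IL27_plus_TGF_beta by 0.95 ± 0.12 (adjusted p = 0.00014). The rise in iTreg (0.39 ± 0.12, adjusted p = 0.014) missed the threshold with a filter at 5 FPKM, with the highest transcript in place of the sum (0.14), without iTreg replicate 2 (0.29) and without Th0 replicate 2 (0.33). The Th17_23 medium contains IL-1β, the cytokine whose receptor the antagonist occupies, and the IL27_plus_TGF_beta medium does not.

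The sum for Il1rn joins 3 RefSeq transcripts. NM_031167 begins at an upstream start site. NM_001039701 and NM_001159562 begin near downstream start sites, the first 8431 bases from the upstream one and the next 80 bases further on. The downstream transcripts held 95.9% and 91.2% of Il1rn FPKM in IL27_plus_TGF_beta and 87.7% and 93.3% in Th17_23. NM_001039701 alone held 90.2% and 81.5% in IL27_plus_TGF_beta and 82.5% and 93.3% in Th17_23. In iTreg the assignment was not repeatable, since NM_001039701 held nearly all of replicate 1 and NM_001159562 nearly all of replicate 2. It varied in Th17_b too, where the downstream transcripts held 70.5% of replicate 1 and nearly all of replicate 2, and in Th17_23, where NM_001159562 stood at 0.303 FPKM in replicate 1 and near 0 in replicate 2. No source used here gives how reads were divided among overlapping transcripts.

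**Figure D4:**
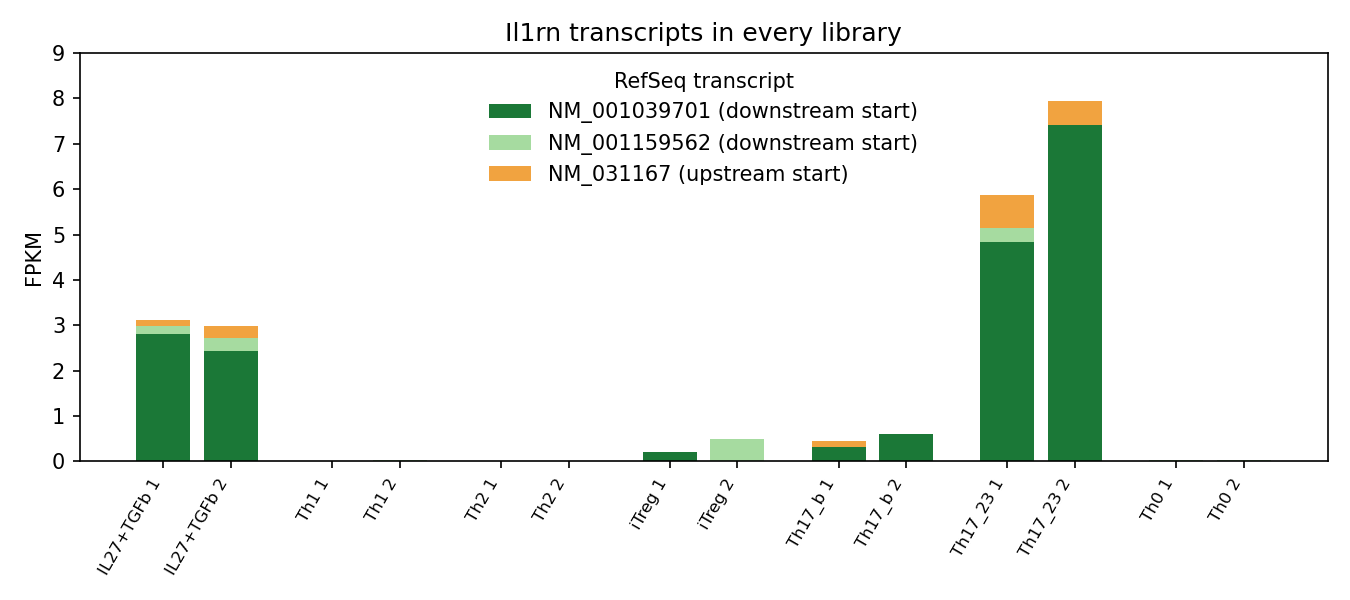
FPKM of the 3 Il1rn transcripts, stacked from 0, in each of the 14 libraries with Th0 at the right, dark and light green for the downstream start sites and orange for the upstream one. Dark green, NM_001039701, makes up most of the bars of IL27_plus_TGF_beta and Th17_23, and the bars of Th1, Th2 and Th0 are too low to see.

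The windows around the upstream and the first downstream start site are shown because the data separate transcripts that begin upstream and downstream. They are chr2:24336610-24336909 and chr2:24345041-24345340 of GRCm38.p6, both on the plus strand, taken from RefSeq, with matches in capitals.
Il1rn upstream: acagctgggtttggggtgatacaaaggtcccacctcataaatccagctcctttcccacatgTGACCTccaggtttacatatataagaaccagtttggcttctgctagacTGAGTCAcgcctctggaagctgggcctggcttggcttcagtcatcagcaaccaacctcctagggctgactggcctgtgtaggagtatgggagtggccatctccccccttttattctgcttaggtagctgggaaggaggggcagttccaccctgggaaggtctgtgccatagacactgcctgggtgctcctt
Il1rn downstream: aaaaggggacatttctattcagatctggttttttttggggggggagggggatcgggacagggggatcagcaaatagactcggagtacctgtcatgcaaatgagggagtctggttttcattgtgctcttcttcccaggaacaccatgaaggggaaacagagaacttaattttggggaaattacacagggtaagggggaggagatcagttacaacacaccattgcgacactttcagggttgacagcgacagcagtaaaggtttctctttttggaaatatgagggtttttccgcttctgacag
The upstream window, that of the minor transcript, holds TGAGTCA, a match to the AP-1 letters, from 141 to 135 bases before the start site, and TGACCT, the reverse complement of AGGTCA, from 189 to 184 bases before it. These matches do not overlap. The AP-1 letters occur in 7.81% and the ROR letters in 16.3% of promoter windows. The window of the first downstream start site holds none of the 5 motifs, and neither does the window of the start site 80 bases further on. Which of these sites each downstream transcript uses is not given here.

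Counted by medium, the 7 genes did not move as a block against Th0. All 7 passed the filter on low values, Il18 through Th17_23 alone and Il1rn through Th17_23 and IL27_plus_TGF_beta. In IL27_plus_TGF_beta 4 of 7 were called, Il1rn higher and Casp1, Casp4 and Aim2 lower, where 50.9% of all tested genes were called, 22.1% higher and 28.9% lower. In Th1 1 of 7 was called, Aim2, which was lower, against 13.9% of all genes, 6.37% higher and 7.56% lower. In Th2 3 of 7 were called, Casp1, Gsdmd and Aim2, all lower, against 18.1% of all genes, 5.69% higher and 12.4% lower. In iTreg 5 of 7 were called, Aim2 and Il1rn higher and Casp1, Casp4 and Gsdmd lower, against 63.5% of all genes, 22.7% higher and 40.8% lower. In Th17_b 6 of 7 were called, Gsdmd and Il1rn higher and Casp1, Casp4, Aim2 and Il18 lower, against 54.5% of all genes, 25.4% higher and 29.1% lower. In Th17_23 6 of 7 were called as well, Casp1, Casp4, Gsdmd, Il18 and Il1rn higher and Aim2 lower, against 49.3% of all genes, 26.4% higher and 23% lower. With 7 genes, and backgrounds from 13.9% to 63.5%, the shares are not read as a result about the group. The median change of the 7 genes was -0.23 in IL27_plus_TGF_beta, -0.03 in Th1, -0.32 in Th2, -0.06 in iTreg, -0.25 in Th17_b and 0.61 in Th17_23. The median change of all tested genes was -0.04 in IL27_plus_TGF_beta, -0.05 in Th1, -0.07 in Th2, -0.13 in iTreg, -0.03 in Th17_b and 0.03 in Th17_23. With quantile normalization the median of all genes in iTreg was -0.02. The 6 comparisons share the Th0 libraries and are therefore not independent.

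Both Th17 media held IL-6, with added TGF-β in Th17_b and with IL-1β, IL-23 and antibodies to TGF-β in Th17_23. In Th17_b against Th17_23, 4 of 7 genes were called, all lower, where 55.6% of all genes were called, 23.4% higher and 32.3% lower. They were Casp4 (-3.03 ± 0.15, adjusted p = 5.4e-07), Casp1 (-2.74 ± 0.15, adjusted p = 1.0e-06), Il1rn (-2.36 ± 0.12, adjusted p = 5.8e-07) and Il18 (-0.98 ± 0.09, adjusted p = 3.1e-05). To be tested at all, Il18 had to be high in Th17_23, and Il1rn in Th17_23 or IL27_plus_TGF_beta. Casp1 in Th17_b was at 7.16% and Casp4 at 9.28% of the level in Th17_23. Gsdmd (-0.11 ± 0.09, adjusted p = 0.35), Aim2 (-0.10 ± 0.07, adjusted p = 0.23) and Pycard (-0.28 ± 0.13, adjusted p = 0.093) were not called, although Pycard was without Th17_23 replicate 1 (-0.50) and in a fit of these media alone.

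IL27_plus_TGF_beta and Th17_b share TGF-β at 2 ng/ml, and differ in IL-27 against IL-6 and in anti-IL-4. In IL27_plus_TGF_beta 5 of 7 genes were called against Th17_b, with 38.6% of all genes called, 16.7% higher and 21.9% lower. Il1rn (1.41 ± 0.12, adjusted p = 1.3e-05), Casp1 (0.92 ± 0.15, adjusted p = 0.00091) and Casp4 (0.87 ± 0.15, adjusted p = 0.0013) were higher. Gsdmd (-0.52 ± 0.09, adjusted p = 0.0016) and Aim2 (-0.49 ± 0.07, adjusted p = 0.00043) were lower. Il1rn passed the filter through IL27_plus_TGF_beta and Th17_23, so it had to be high in either to be tested, here and against iTreg and Th1.

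Against iTreg, whose medium had more TGF-β, added IL-2 and no antibody to IL-2 or IL-4, 5 of 7 genes were called in IL27_plus_TGF_beta, with 66.3% of all genes called, 38.4% higher and 27.9% lower. Il1rn (1.59 ± 0.12, adjusted p = 2.8e-06), Casp4 (1.53 ± 0.15, adjusted p = 1.6e-05) and Gsdmd (1.17 ± 0.09, adjusted p = 4.4e-06) were higher and Aim2 was lower (-1.62 ± 0.07, adjusted p = 1.2e-07). Casp1 was higher by 0.56 ± 0.15 (adjusted p = 0.0077), a call lost without IL27_plus_TGF_beta replicate 2 (0.51) or iTreg replicate 2 (0.35). Pycard (-0.33 ± 0.13, adjusted p = 0.051) passed in 7 alternatives, such as quantile normalization (-0.45) and leaving out iTreg replicate 2 (-0.44).

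Against Th1, 5 of 7 genes were called in IL27_plus_TGF_beta, with 52.4% of all genes called, 26% higher and 26.3% lower. Il1rn was higher (1.99 ± 0.12, adjusted p = 1.4e-06). Casp4 (-1.91 ± 0.15, adjusted p = 7.7e-06), Casp1 (-1.06 ± 0.15, adjusted p = 0.00028) and Aim2 (-0.59 ± 0.07, adjusted p = 0.00011) were lower. Gsdmd was lower too (-0.27 ± 0.09, adjusted p = 0.032), a call lost in 6 alternatives, among them leaving out IL27_plus_TGF_beta replicate 1 (-0.19), Th1 replicate 1 (-0.22) or Th1 replicate 2 (-0.32).

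By level, neighbouring media could often not be separated. For Casp1 the order from the highest mean was Th17_23, Th0, Th1, Th2, IL27_plus_TGF_beta, iTreg and Th17_b, in which Th0 and Th1, Th2 and IL27_plus_TGF_beta, and iTreg and Th17_b (adjusted p = 0.057) were not called different. For Casp4 it was Th17_23, Th1, Th0, Th2, IL27_plus_TGF_beta, Th17_b and iTreg, and each step from Th2 down was called. For Gsdmd it was Th17_23, Th17_b, Th1, Th0, IL27_plus_TGF_beta, Th2 and iTreg, with called steps between Th17_b and Th1 (0.25 ± 0.09, adjusted p = 0.041), between IL27_plus_TGF_beta and Th2 (adjusted p = 0.018) and between Th2 and iTreg (adjusted p = 4.2e-05). For Aim2 it was iTreg, Th0, Th17_23, Th1, Th17_b, Th2 and IL27_plus_TGF_beta, with called steps below iTreg, below Th0 and between Th17_b and Th2 (0.41 ± 0.07, adjusted p = 0.00079). For Pycard no neighbouring media were called different, but some further apart were. Pycard was lower in Th1 (-0.49 ± 0.13, adjusted p = 0.011), Th2 (-0.38 ± 0.13, adjusted p = 0.033) and IL27_plus_TGF_beta (-0.39 ± 0.13, adjusted p = 0.033) than in Th17_23. Its level in Th1 was also lower than in iTreg (-0.43 ± 0.13, adjusted p = 0.016). For Il1rn it was Th17_23, IL27_plus_TGF_beta, Th17_b, iTreg, Th0, Th1 and Th2, with called steps below Th17_23, IL27_plus_TGF_beta and iTreg.

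Of 14 other inflammasome sensors and their helpers, 2 passed the filter at 1 FPKM, Naip2 and Nek7, and 5 were at or under 0.05 FPKM in every library. Nlrp3, the best known sensor, named here after its values were seen, stood at 0.327 and 0.627 FPKM in Th17_23 and at or under 0.0190 in every other library, and was too low to be tested. Nek7, the kinase that binds NLRP3, rose against Th0 in IL27_plus_TGF_beta (0.53 ± 0.06, adjusted p = 8.7e-05), iTreg and Th2 and fell in Th17_b and Th17_23. Naip2, a sensor of bacterial secretion systems, rose in iTreg (0.88 ± 0.14, adjusted p = 0.00041) and fell in IL27_plus_TGF_beta (-0.61 ± 0.14, adjusted p = 0.0045), but it passed the filter through iTreg alone and so had to be high there to be tested.

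The AIM2-like genes are DNA-binding relatives of Aim2. Of 7 on the list, 4 were tested: Mndal, Ifi203, Ifi204 and Ifi205, interferon-inducible genes whose near-identical sequences make their separate levels uncertain. All 4 fell in Th17_b, Th2 and Th17_23 against Th0, where 29.1%, 12.4% and 23% of all tested genes were lower. In iTreg, where Aim2 was highest, Ifi203 rose (0.40 ± 0.14, adjusted p = 0.030) and the other 3 were not called. Of all tested genes, 22.7% were higher and 40.8% lower in iTreg. Mndal stood at 2.12 and 2.71 FPKM in Th17_b, against 44.9 and 48.5 in Th0 (-3.81 ± 0.13, adjusted p = 4.8e-08). In IL27_plus_TGF_beta 2 rose and 2 fell, with Ifi204 higher (1.32 ± 0.09, adjusted p = 2.6e-06) and Mndal lower (-1.18 ± 0.13, adjusted p = 6.5e-05). In that medium 22.1% of all tested genes were higher and 28.9% lower. Ifi204 passed the filter through IL27_plus_TGF_beta alone and so had to be high there to be tested.

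Of 8 listed caspases outside the inflammatory pair, 6 were tested. Casp6 rose in Th17_23 to 47.7 and 62.0 FPKM, against 11.1 and 9.95 in Th0 (2.27 ± 0.19, adjusted p = 2.0e-05), and rose also in Th2 (1.68 ± 0.19, adjusted p = 0.00032), Th17_b (1.00 ± 0.19, adjusted p = 0.0017) and Th1 (0.95 ± 0.19, adjusted p = 0.012). Casp2 fell in Th1 (-0.37 ± 0.06, adjusted p = 0.0061) and rose in Th17_b (0.22 ± 0.06, adjusted p = 0.015). Of 10 other gasdermin and membrane rupture genes, 1 was tested: Ninj1, whose product ruptures the plasma membrane after pore formation. Ninj1 stood at 29.2 and 28.6 FPKM in IL27_plus_TGF_beta, 41.5 and 43.9 in iTreg and 33.2 and 32.7 in Th17_b, against 15.4 and 14.3 in Th0, and it rose in all 3, by 1.46 ± 0.08 in iTreg (adjusted p = 1.5e-06). Gsdme, another gasdermin, also named after its values were seen, stayed at or under 0.933 FPKM.

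Other ligands of the IL-1 family were at or near 0 in most media. Il1b was listed at 0 in 11 of 14 libraries and did not exceed 0.0453 FPKM, and Il1a lay between 0.0139 and 0.278 FPKM. Il33, an alarmin of the family, was the exception, with 16.5 and 26.2 FPKM in Th17_23 and at most 0.0541 in any other library (Th17_23 against Th0 4.41 ± 0.15, adjusted p = 1.0e-07). It was the 1 gene tested of 8 on the ligand list, and it passed the filter through Th17_23 alone, so that it had to be high there to be tested.

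**Figure D5:**
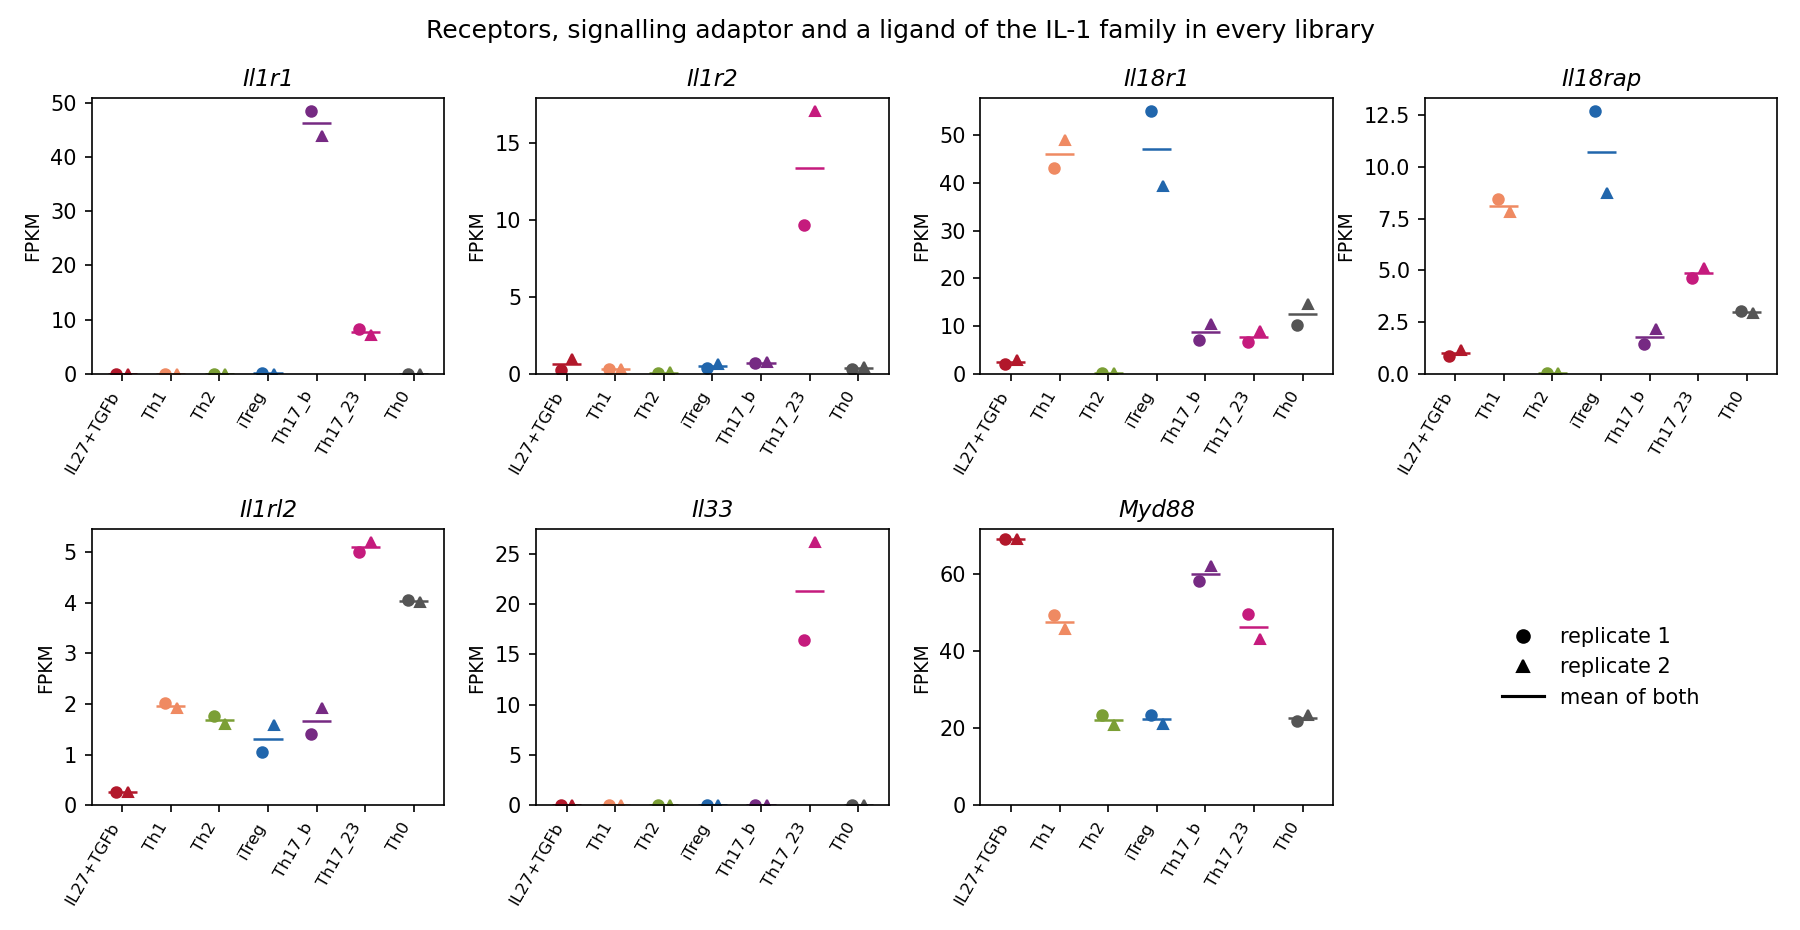
FPKM (linear axis from 0) of 5 receptor genes, the ligand gene Il33 and the adaptor gene Myd88 in each library, with circles for replicate 1, triangles for replicate 2 and lines for their mean, Th0 at the right. Il1r1 is seen in Th17_b and Th17_23, Il1r2 and Il33 in Th17_23, and Il18r1 and Il18rap are highest in Th1 and iTreg.

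Il1r1, the signalling IL-1 receptor, stood at 48.4 and 43.9 FPKM in Th17_b and 8.25 and 7.23 in Th17_23, and at or under 0.187 in every other library. It rose against Th0 in Th17_b (5.55 ± 0.08, adjusted p = 5.8e-10) and Th17_23 (3.12 ± 0.08, adjusted p = 3.8e-08). In IL27_plus_TGF_beta, Il1rn thus stood at 3.11 and 2.99 FPKM while Il1r1 was at 0.0705 and 0.0316. Il1r2, the decoy receptor, was highest in Th17_23, at 9.68 and 17.1 FPKM, against 0.314 and 0.433 in Th0 (3.34 ± 0.18, adjusted p = 1.5e-06). Il1r2 passed the filter through Th17_23 alone and Il1r1 through Th17_b and Th17_23, so that each had to be high there to be tested.

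Both chains of the IL-18 receptor were highest in Th1 and iTreg. Il18r1 stood at 2.18 and 2.96 FPKM in IL27_plus_TGF_beta, 43.1 and 49.1 in Th1, 0.112 and 0.108 in Th2, and 55.1 and 39.4 in iTreg, against 10.3 and 14.6 in Th0. It rose in Th1 (1.82 ± 0.20, adjusted p = 0.00056) and iTreg (1.84 ± 0.20, adjusted p = 6.2e-05). It fell most in Th2 (-3.58 ± 0.20, adjusted p = 4.0e-06), and also in IL27_plus_TGF_beta (-1.91 ± 0.20, adjusted p = 4.9e-05) and Th17_23 (-0.61 ± 0.20, adjusted p = 0.032). Il18rap, its accessory chain, named here after its values were seen, moved the same way in Th1 (1.19 ± 0.16, adjusted p = 0.0019) and iTreg (1.53 ± 0.16, adjusted p = 5.2e-05). Falls of Il18rap were called in Th2 and IL27_plus_TGF_beta, as for Il18r1. In Th17_23, however, Il18rap rose (0.55 ± 0.16, adjusted p = 0.019), opposite to Il18r1. In Th17_b, Il18rap fell (-0.53 ± 0.16, adjusted p = 0.021), while Il18r1 was not called (-0.47 ± 0.20, adjusted p = 0.075). Il1rl2, the IL-36 receptor, fell to 0.268 and 0.263 FPKM in IL27_plus_TGF_beta, against 4.04 and 4.01 in Th0 (-1.99 ± 0.11, adjusted p = 9.2e-07). Lower calls were also made in Th1 (-0.76 ± 0.11), Th2 (-0.91 ± 0.11), iTreg (-1.13 ± 0.11) and Th17_b (-0.93 ± 0.11), but none in Th17_23. Of 11 receptor and binding protein genes 8 were tested, and against Th0 2 rose and 4 fell in IL27_plus_TGF_beta, 2 and 1 in Th1, 0 and 4 in Th2, 2 and 3 in iTreg, 3 and 2 in Th17_b, and 4 and 1 in Th17_23. Of all tested genes, 50.9% were called in IL27_plus_TGF_beta, 13.9% in Th1, 18.1% in Th2, 63.5% in iTreg, 54.5% in Th17_b and 49.3% in Th17_23. Split by direction, 22.1% were higher and 28.9% lower in IL27_plus_TGF_beta, 6.37% and 7.56% in Th1, and 5.69% and 12.4% in Th2. These shares were 22.7% and 40.8% in iTreg, 25.4% and 29.1% in Th17_b, and 26.4% and 23% in Th17_23.

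Markers of other cell types also differed between media. The myeloid sum was 6.195 to 6.62 FPKM in IL27_plus_TGF_beta, 6.28 to 6.85 in Th1, 4.86 to 6.11 in Th2, 4.13 to 6.58 in iTreg, 3.84 to 3.91 in Th17_b and 4.78 to 6.58 in Th17_23, against 3.55 to 3.77 in Th0. Of the 3 myeloid markers tested, Cd68 rose in IL27_plus_TGF_beta (0.88 ± 0.11, adjusted p = 0.00015), Th1 (0.88 ± 0.11, adjusted p = 0.0011) and Th17_23 (0.55 ± 0.11, adjusted p = 0.0029), Adgre1 rose in Th2 (1.58 ± 0.12, adjusted p = 2.6e-05) and Itgam rose in iTreg (0.77 ± 0.22, adjusted p = 0.013). Adgre1 was called against Th0 in Th2 alone and Itgam in iTreg alone. A marker had to reach 1 FPKM in some medium to be tested, so a marker low elsewhere had to be high where it rose. The 9 dendritic cell markers summed to 17.7 to 19.8 FPKM in Th17_23 and 2.08 to 2.89 in iTreg, against 10.4 to 10.6 in Th0, the direction of Casp1, Casp4 and Gsdmd in these media. In Th2 the sum was 15.3 to 17.2 FPKM, also above Th0, where Casp1 and Gsdmd were lower. Most of the sum in Th17_23, Th2 and Th0 was H2-Ab1. Against Th0, H2-Ab1 rose in Th17_23 (0.87 ± 0.16, adjusted p = 0.0017) and fell in iTreg (-2.02 ± 0.16, adjusted p = 9.3e-06). H2-Eb1, the other dendritic cell marker tested, was not called in Th17_23 (0.03 ± 0.14, adjusted p = 0.86) or iTreg (-0.06 ± 0.14, adjusted p = 0.74). Itgax, Cd209a and Siglech were at or under 0.05 FPKM in every library. The 5 natural killer markers summed to 4.15 to 11.1 FPKM in iTreg, against 0.132 to 0.522 in Th0, and nearly all of it was Klrd1. Their part in the results was not tested.

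Genes with the most similar pattern were sought for each of the 5 genes whose medium means span 1 or more on the log2 scale, among 4502 genes with such a span. Over the 7 medium means, Casp1 was most like Sms (r = 0.984) and Prdx3 (r = 0.980), and Casp4 most like Spryd7 (r = 0.995) and Cd200 (r = 0.991). Gsdmd was most like Rpap3 (r = 0.983) and Spidr (r = 0.980), and Il1rn most like Lrrc73 (r = 0.976) and Gadd45b (r = 0.974). Aim2 was most like Txnip (r = 0.986), whose product binds thioredoxin and NLRP3, and Gm15441 (r = 0.985), a noncoding RNA antisense to Txnip. Since no strand setting is given, reads of Txnip and Gm15441 cannot be told apart. Cd200 stood at 8.17 and 18.5 FPKM in Th17_b and 114 and 151 in Th17_23, against 55.5 and 90.3 in Th0, and Txnip at 108 and 99.7 FPKM in iTreg, against 66.4 and 38.9 in Th0. These correlations describe 7 means of the same libraries and were picked as the highest of many.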

How the data were processed

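RNA of 14 libraries was read from 2 deposited tables, 1 per replicate number. Per the labels' protocols total RNA was used with TruSeq libraries, and the submitters' processing notes name mm9, Cufflinks 1.3.0 and TopHat2 2.0.3. The FPKM values were made by the authors, per transcript, and no source used here gives their scaling between tables. FPKM holds no counts, so whole reads are given only where the steps between values allowed it. For a gene with 1 transcript, all libraries had to lie within 0.01 of a whole number of steps. The library total that a step implied also had to lie within 25% of the median over 1689 transcripts. Casp1, Pycard and Aim2 met the first condition but not the second, so no reads are given for them.

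The 30028 transcripts were summed to 23759 genes, 96.7% of them named by RefSeq accession. The 11555 genes whose mean reached 1 FPKM in any medium were fitted with limma 3.58.1 in R 4.3.3 on log2(FPKM + 1), with medium and table as terms, over all 14 libraries, and adjusted by Benjamini-Hochberg over all tested genes in each of 10 comparisons, two-sided. The table term was kept since both tables were deposited apart and hold 1 library of each medium. The fit was tested on simulated data. Python 3.11.15 and matplotlib 3.10.9 drew the figures.

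The 7 genes and all lists were chosen with earlier results of these data known. Named besides the 7 genes are up to 4 genes per list with the smallest adjusted p in any comparison, and the 2 genes most correlated over media with each of the 7 whose means span at least 1 on the log2 scale. Some genes of the caspase list are not reported here. Alternatives were a fit without the table term, a pseudocount of 0.1, scaling to 1 median, quantile normalization, testing every gene, testing genes from 5 FPKM, the highest transcript per gene, the compared media alone, and leaving out each library.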

Additional observations from a re-analysis of the deposited data

How the results depend on the processing

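The number of the 7 genes called stayed within 1.5 times the reported one in every alternative run for 9 of the 10 comparisons. The exception was Th1 against Th0, where 1 gene was called and 0 were without the replicate block (the table term) or with all other media left out, 3 with quantile normalization and 3 with scaling to 1 median, and 0 to 0 with 1 library left out. Over all genes, 1609 were called in Th1 against Th0, 967 without the block, 166 with the other media left out and 494 to 912 with 1 library left out. In Th2 against Th0 2087 were called, 892 with the other media left out and 1005 to 1563 with 1 library left out. The directions that turned were all of changes not called. Gsdmd in IL27_plus_TGF_beta against Th0 was 0.0308 with scaling to 1 median and -0.0943 to 0.0636 with 1 library left out. With the highest transcript per gene, Il1rn was 2.45e-07 in Th1 and 6.28e-07 in Th2 against Th0, and with 1 library left out -0.0697 to 0.0563 in Th1 and -0.0805 to 0.0482 in Th2. With 1 library left out, Il18 was -0.128 to 0.0114 in IL27_plus_TGF_beta against iTreg and -0.0821 to 0.0260 in Th1 against Th0. Pycard against Th0 was then -0.0449 to 0.231 in iTreg, -0.0562 to 0.372 in Th17_23 and -0.262 to 0.0138 in Th17_b. The cause was not tested. Each replicate number is 1 table with its own depth, and the labels give no other link between same-numbered libraries, whose deviations correlated between -0.13 and 0.36 over 21 pairs of media. The order of neighbouring media, and pairs of media outside the 10 comparisons, were computed under the reported settings alone. Replicate 2 libraries were shallower, Il18 rests on 1 to 7 reads outside Th17_23, and 2 libraries per medium leave 6 residual degrees of freedom.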

Other observations

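Of 13 listed regulators of inflammasomes, 11 were tested, and in IL27_plus_TGF_beta against Th0 6 rose and 2 fell, where 22.1% of all tested genes were higher and 28.9% lower. Irf1, the interferon-induced transcription factor, stood at 228 and 249.6 FPKM in IL27_plus_TGF_beta and 79.7 and 73.4 in Th1, against 17.6 and 14.9 in Th0, and rose in both (3.80 ± 0.10 in IL27_plus_TGF_beta, limma adjusted p = 1.1e-08, and 2.17 ± 0.10 in Th1, limma adjusted p = 4.1e-06). Serpinb1a, a protease inhibitor, stood at 33.8 and 41.3 FPKM in Th17_b, against 0.0555 and 0 in Th0 (5.22 ± 0.23, limma adjusted p = 2.0e-07), and it passed the filter through Th17_b and Th17_23 alone. P2rx7, the ATP-gated channel, fell to 0.232 and 0.279 FPKM in IL27_plus_TGF_beta, against 2.86 and 6.47 in Th0 (-2.10 ± 0.19, limma adjusted p = 1.9e-05), and rose in Th1 and iTreg. Smaller falls of P2rx7 were called in Th2 (-0.64 ± 0.19), Th17_b (-0.86 ± 0.19) and Th17_23 (-0.95 ± 0.19). Card6 stood at 34.6 and 27.5 FPKM in iTreg, against 7.06 and 6.13 in Th0 (2.07 ± 0.09, limma adjusted p = 4.1e-07).

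Of 12 genes that signal from IL-1 family receptors, 11 were tested, and in Th17_23 against Th0 5 rose and 2 fell, where 26.4% of all tested genes were higher and 23% lower. Myd88, the adaptor shared by these receptors, stood at 69.2 and 69.3 FPKM in IL27_plus_TGF_beta, against 21.8 and 23.3 in Th0 (1.58 ± 0.09, limma adjusted p = 7.1e-07), and rose in Th1, Th17_b and Th17_23 too. Irak2, a kinase of the complex, fell to 2.59 and 2.65 FPKM in IL27_plus_TGF_beta, against 8.23 and 9.00 in Th0 (-1.41 ± 0.11, limma adjusted p = 6.6e-06). Irak2 fell in Th17_b too (-1.14 ± 0.11, limma adjusted p = 2.5e-05) and rose in Th17_23 (0.41 ± 0.11, limma adjusted p = 0.013). Map3k7, the kinase TAK1 further down, stood at 66.5 and 66.9 FPKM in iTreg, against 25.2 and 24.3 in Th0 (1.39 ± 0.06, limma adjusted p = 4.0e-07).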
